A study of Homo sapiens with 8 samples.

Results

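KYSE180 is an established human line of esophageal squamous cell carcinoma, derived per the labels from a well differentiated tumour. The 4 arrays described here, of 8 in the series, measured transcripts in cells of this line that had been sorted by their ability to cross a porous transwell membrane in 4 successive selections. The groups were chosen by sample title. 180D (2 arrays) held the sublines that passed through the membrane, and 180U (2 arrays) those that stayed above it and are labelled as weaker in motility. No gene was edited, no agent was added, and all sublines were harvested at about the same confluence, 2 passages after collection. The values therefore describe regrown populations and not cells in the act of crossing. Each 180D subline has 1 partner in 180U from the same parental population, and the titles cross: 180U replicate 1 belongs with 180D replicate 2, and 180U replicate 2 with 180D replicate 1. The comparison asks which transcripts separate the passing from the non-passing cells. The KYSE30 arrays of the series (30D and 30U, 2 each, selected in the same way in another squamous line) are used for the shared estimate of the spread and for 1 test of difference.

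Stratified squamous epithelium renews itself from basal cells that sit on a basement membrane of laminins and type IV collagen. As cells leave that layer they build desmosomes, switch keratins and finally make precursors of the cornified envelope, such as the small proline-rich proteins, involucrin and filaggrin. To cross a membrane a cell has to remodel its adhesions and actin cortex, and carcinoma cells commonly use surface and secreted proteases while doing so.

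Squamous epithelial markers were measured at high levels in all KYSE180 sublines. Of 15 listed markers, 11 had a probe set with 1 gene symbol and were analysed. The 11 markers analysed here, including KRT5, KRT14, SOX2, CDH1 and DSG3, lay above the filter value of 4.46 in the KYSE180 arrays, and none passed the threshold between the groups in the fit as given. SFN passed, lower in 180D, under 4 alternatives: the filter at the 60th percentile, the mean of a gene's probe sets, arrays centred on their medians (-0.29) and the intensity trend. DSG3 passed with the mean of probe sets and with the trend, and DSC3 and PERP with the trend. The mean of the 11 was 11.84 and 11.79 on the 180U arrays (replicates 1 and 2, the order used throughout) and 11.71 and 11.67 on the 180D arrays. All values are log2 units made with RMA, and changes are log2 differences, 180D minus 180U, given ± SE. The fit pools the spread over the groups of 2 arrays, and this small number of arrays limits the precision. Each array is a population selected on its own, but the arrays share parental populations in pairs, which this fit does not use. The p-values measure the spread between arrays of a group, pooled over both lines. RMA makes the distributions of arrays alike, so a change in total RNA per cell would not be seen. In bulk RNA a lower level from fewer expressing cells and one from less RNA per cell cannot be told apart.

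The control probe sets of 1 array, 180D replicate 1, departed from the rest. Its ACTB signal near the 3′ end exceeded that near the 5′ end by 1.92, against 1.06 to 1.42 on the other 7 arrays, and the same measure for GAPDH was 0.153 against 0.101 to 0.140. Its 18S ribosomal RNA signal was 11.47, against 12.35 to 12.54, and its hybridisation spikes averaged 9.83, against 10.01 to 10.10. Across the 14180 tested genes the arrays of a group correlated with r = 0.9972 (180U) and r = 0.9969 (180D), while pairs across the groups had r between 0.9940 and 0.9953. 180D replicate 2 was closer than replicate 1 to both 180U arrays. A call is said to hold below if it was kept, in the same direction, with the parental population as a block and in all 4 fits made after dropping 1 of the KYSE180 arrays. Other alternatives are not part of this rule. For example, RBMS3 and PLA2G4A held but lost their calls with the ACTB 3′ to 5′ difference as a covariate. MT2A, CCNG1 and ALDH7A1 held but lost theirs with the KYSE180 arrays only.

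Of the 14180 genes tested, 532 (3.75%) passed an adjusted p of 0.05 in limma, 361 (2.55%) higher and 171 (1.21%) lower in 180D. Changes of 2-fold or more were seen in 30 of the higher and 19 of the lower genes. Of the 532, 14 had both group means below the filter value. They stay in all counts, those of the lists included, but are not read as rises or falls. Changes were modest, with a median size of 0.44 among the 532, and the median over all tested genes was 0.02. The block of parental populations left 230 calls, 213 of them shared with the 532, and without 180D replicate 1 the count was 209, with 188 shared. A fit with the ACTB 3′ to 5′ difference as a covariate called 184, of which 170 were shared. The calls of 142 genes held, 96 higher and 46 lower. With arrays centred on their medians 53.3% of calls were higher, against 67.9% in the fit as given.

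All 532 genes changed in the same direction in both parental populations, as did 59.98% of all tested genes. The change was larger in the pair holding 180D replicate 1 for 306 of them. In that pair the median was 0.47 for the higher and -0.51 for the lower genes, against 0.41 and -0.47 in the other pair. Of the 532, 281 had a further probe set past the filter, and in 245 of these the most changed of the others moved the same way. Among the 133 named genes with a call, 80 had a further probe set, and in 18 at least 1 of these moved the other way (ACSL1, ADAM12, ALDH7A1, ARHGAP29, CDK6, COL1A1, DLL1, DUSP4, ETV5, GATA6, IDI1, LRATD1, NT5E, SCD, SEL1L, SLC39A8, TFPI and TGFA). A shared direction did not always mean a similar size. For example, the other probe sets of AXL, PKP2, LGR4, SEMA3C and KRT7 changed by only 0.09, 0.11, 0.09, 0.10 and 0.03 in that order. The arrays of the groups did not overlap in any of the 532 genes, but neither did they in 44.6% of all tested genes. Statements on overlap below therefore describe the arrays and add nothing to a call.

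**Figure D1:**
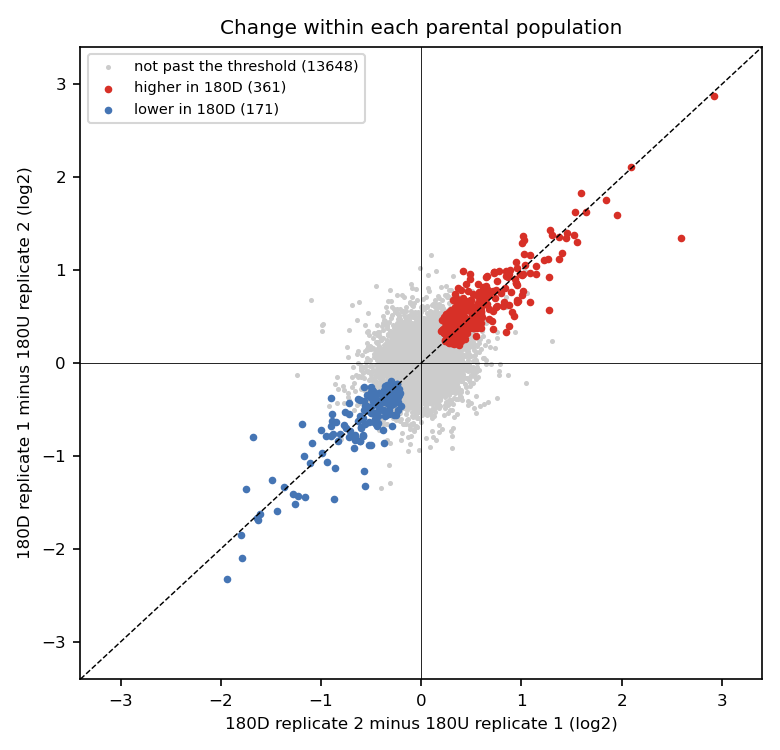
Each point is 1 of 14180 tested genes, placed by its log2 change in the pair 180D replicate 2 minus 180U replicate 1 (x axis) and in the pair 180D replicate 1 minus 180U replicate 2 (y axis), with the dashed line marking equal change. The 361 genes higher (red) and 171 lower (blue) in 180D lie in the quadrants of shared direction.

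HMCN1 had the largest rise in the passing cells, and 5 cell-surface and matrix genes among the 20 most raised are described first. HMCN1, which encodes hemicentin-1, a very large fibulin-family protein of basement membranes, read 4.34 and 4.53 in 180U and 7.41 and 7.26 in 180D (2.90 ± 0.08, adjusted p = 3.24e-05). Its 180U level sat near the filter value, and measured from that value it was at least 7.37-fold higher. FAT4, an atypical cadherin of planar polarity and Hippo signalling, read 4.63 and 4.70 in 180U and 6.53 and 6.22 in 180D (1.71 ± 0.10). For both genes the arrays of the groups lay far apart, and the 2 arrays within a group lay close together. VIT (vitrin), a matrix protein, read 4.40 and 4.38 in 180U and 5.77 and 5.85 in 180D and was at least 2.56-fold higher from the filter value. THSD4, which promotes the assembly of fibrillin microfibrils, read 8.81 and 8.81 in 180U and 10.24 and 10.10 in 180D (1.36 ± 0.07). LGALS1, galectin-1, a secreted lectin that bridges glycoproteins of cells and matrix, read 8.39 and 8.47 in 180U and 9.82 and 9.83 in 180D (1.40 ± 0.05, adjusted p = 6.51e-05). None of these overlapped between the groups, and their calls held.

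Proteases and growth factors were also among the leading genes. PLAT, tissue plasminogen activator, which turns plasminogen into plasmin, read 3.12 and 3.21 in 180U and 4.96 and 4.96 in 180D. Both 180U arrays were under the filter value, from which the rise was at least 1.42-fold. MMP16, a membrane-type metalloproteinase, read 3.49 and 4.44 in 180U and 5.79 and 6.08 in 180D. Both 180U arrays were below the filter value, from which it was at least 2.78-fold higher. Here the arrays of 180U lay far apart, and the gene's other probe set changed by 0.08. The call of MMP16 ended without either 180D array (highest adjusted p 0.0675). PDGFC, a ligand of platelet-derived growth factor receptors, read 8.99 and 9.12 in 180U and 10.25 and 10.26 in 180D (1.20 ± 0.06, adjusted p = 0.00013), and its second probe set changed by 1.17. SCG2, the granin secretogranin II, read 6.93 and 6.87 in 180U and 8.49 and 8.57 in 180D (1.63 ± 0.07). The calls of PLAT, PDGFC and SCG2 held.

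Some leading genes act on actin or on filaments beneath the membrane, and RHOBTB3 and others are described with them. EPB41L4A, a FERM protein of the band 4.1 family, read 4.49 and 4.67 in 180U and 6.27 and 6.44 in 180D (1.77 ± 0.09), although its other probe set changed by only 0.30. LIMCH1, which activates non-muscle myosin II, read 6.15 and 6.28 in 180U and 7.58 and 7.70 in 180D (1.42 ± 0.07), and its 2 other probe sets changed by 1.11 and 1.34. RHOBTB3 read 8.04 and 8.19 in 180U and 9.31 and 9.42 in 180D (1.25 ± 0.07), and AFAP1L2, an adaptor that binds actin filaments and Src, 5.88 and 5.83 in 180U and 7.15 and 6.91 in 180D (1.18 ± 0.09). In each of these 4 genes both 180D arrays lay above both 180U arrays, and the calls held. PRR16 had the second largest fitted rise (2.10 ± 0.20, adjusted p = 0.00233), with 1.04 on its other probe set. GLRB, the beta subunit of the glycine receptor, started below the filter value and rose at least 2.08-fold from it. RBMS3, an RNA-binding protein, rose by 1.37 ± 0.15. Those 3 calls held. The remaining genes of the 20 were FLG and PADI3, described with the epithelial genes, the homeobox gene IRX1 (1.19 ± 0.14) and PTPRB (1.29 ± 0.15), a receptor phosphatase whose levels lay below the filter value in both groups and is not read as a rise. The calls of IRX1 and PTPRB ended without 180D replicate 1 (highest adjusted p 0.0559 and 0.0514 in that order).

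**Figure D2:**
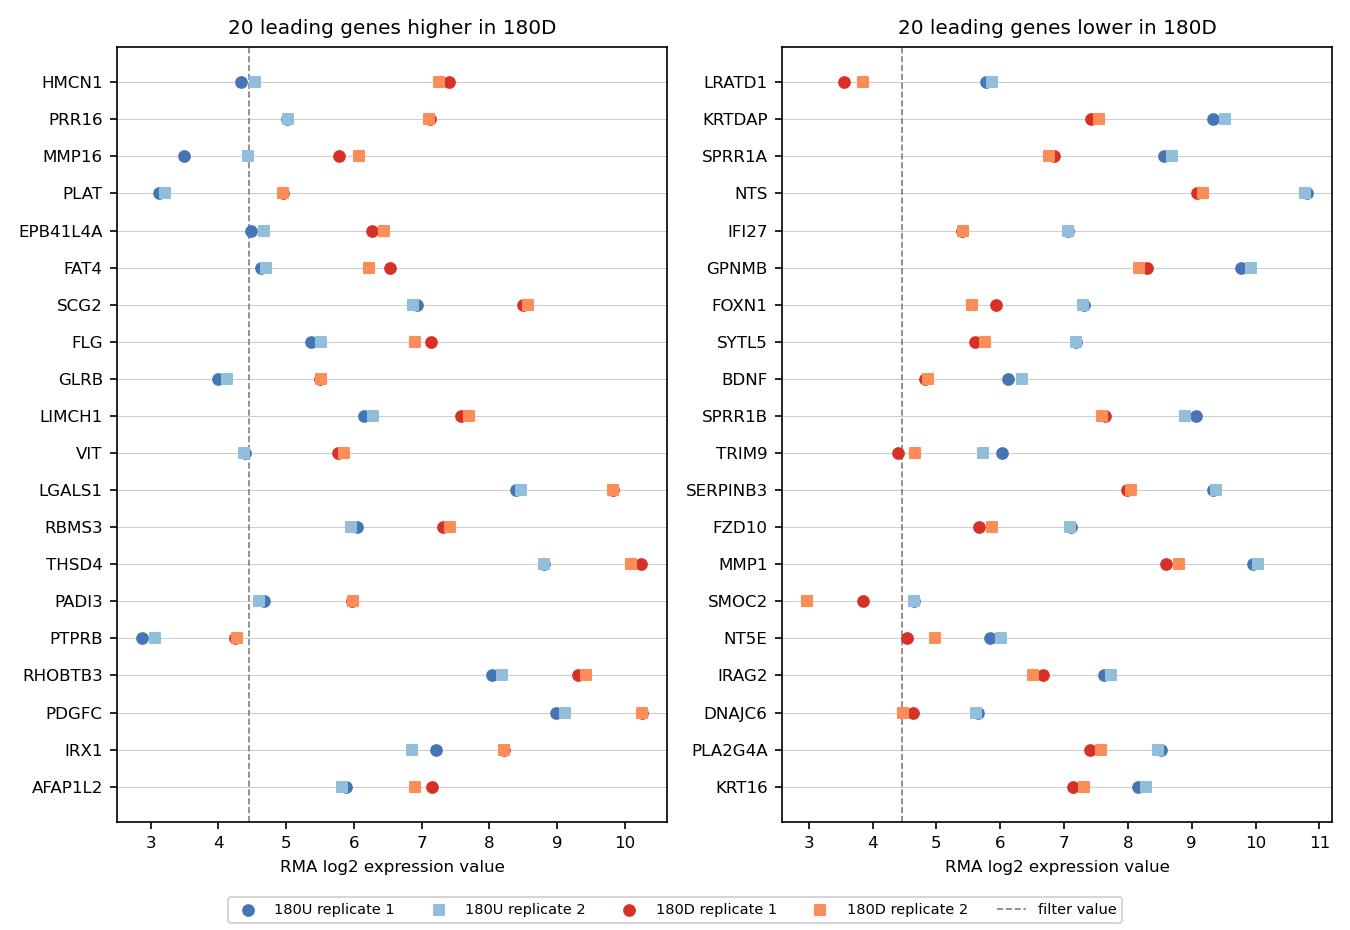
RMA log2 values on the 4 KYSE180 arrays for the 20 genes with the largest rise (left) and the 20 with the largest fall (right) among those past the threshold with the same sign in both pairs, with the filter value as a dashed line. In each row the red and orange 180D points and the blue 180U points do not overlap, and the points of a group are furthest apart for MMP16 in 180U and SMOC2 in 180D.

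Among the 20 genes most reduced in the passing cells were secreted peptides, a collagenase and surface proteins, described first, and products of squamous differentiation, described with their list. NTS, the precursor of the peptide neurotensin, read 10.81 and 10.77 in 180U and 9.09 and 9.18 in 180D (-1.65 ± 0.15, adjusted p = 0.00217). BDNF, a neurotrophin, read 6.12 and 6.34 in 180U and 4.82 and 4.86 in 180D (-1.39 ± 0.08), with -0.54 on its other probe set. MMP1, interstitial collagenase, which cleaves fibrillar collagens, read 9.96 and 10.04 in 180U and 8.60 and 8.80 in 180D (-1.30 ± 0.08, adjusted p = 0.000319). In these 3 genes every 180U array lay above every 180D array, and the calls held. FZD10, a receptor for Wnt ligands, read 7.11 and 7.10 in 180U and 5.66 and 5.88 in 180D (-1.33 ± 0.08). PLA2G4A, the cytosolic phospholipase A2 that releases arachidonic acid, read 8.51 and 8.47 in 180U and 7.40 and 7.57 in 180D (-1.001 ± 0.114). NT5E (CD73), the surface enzyme that makes adenosine from AMP, changed by -1.17 ± 0.13, but its 3 other probe sets changed by -0.27 to 0.11. Although these 3 calls held as well, that of NT5E rests on 1 probe set.

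LRATD1 had the largest fitted fall (-2.13 ± 0.10). In 180D it was under the filter value, from which it was at least 2.58-fold lower, and its 2 other probe sets changed by -0.88 to 0.03. With the filter set on the KYSE180 arrays alone, 1 of these stood for the gene, and the change was 0.03. SYTL5, a Rab27 effector of vesicle traffic, read 7.19 and 7.19 in 180U and 5.60 and 5.75 in 180D (-1.52 ± 0.07), TRIM9, a ubiquitin ligase, changed by -1.35 ± 0.14, and DNAJC6, the clathrin-uncoating protein auxilin, by -1.08 ± 0.08. The calls of these 4 genes held. GPNMB, a transmembrane glycoprotein of lysosomes and melanosomes, changed by -1.62 ± 0.21, IRAG2 by -1.09 ± 0.18 and SERPINB3, the squamous cell carcinoma antigen 1, by -1.34 ± 0.20. SERPINB3 has a near-identical neighbour in the genome, SERPINB4, so its probes may also read that gene. SMOC2, a matricellular protein, read 4.65 and 4.64 in 180U and 3.84 and 2.98 in 180D. Its 180D arrays were below the filter value, which leaves a fall of at least 1.14-fold. The call of GPNMB ended without either 180U array or 180D replicate 1 (highest adjusted p 0.0693). The calls of IRAG2 and SERPINB3 ended without any 1 of the 4 arrays (highest adjusted p 0.12 and 0.0985 in that order). The call of SMOC2 ended with the block and without either 180U array (highest adjusted p 0.143).

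Late squamous differentiation was the group with most losses in 180D. Of 36 tested genes of the cornified envelope and late differentiation 10 fell, 2 rose and 24 did not pass, with a median change of -0.13. That makes 33.3% called, against 3.75% of all genes. The falls of SPRR1A, SPRR1B, SPRR3 and FOXN1 and the rise of FLG held. Without 180D replicate 1 the list had 7 lower and 1 higher, and with the block 4 lower and 1 higher.

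SPRR1A and SPRR1B encode small proline-rich proteins that are cross-linked into the cornified envelope. SPRR1A read 8.57 and 8.69 in 180U and 6.84 and 6.77 in 180D (-1.83 ± 0.07, adjusted p = 6.51e-05), and its other probe set changed by -1.13. SPRR1B read 9.07 and 8.90 in 180U and 7.64 and 7.59 in 180D (-1.37 ± 0.07). SPRR3, the esophageal member of the family, read 9.11 and 9.14 in 180U and 8.34 and 8.39 in 180D (-0.76 ± 0.05). In all 3 the 180U arrays were higher without overlap. SPRR1A and SPRR1B are close copies of each other, so part of their signal may be shared between their probes. KRTDAP, a peptide secreted by differentiating keratinocytes, read 9.33 and 9.52 in 180U and 7.42 and 7.55 in 180D (-1.94 ± 0.26). FOXN1, a transcription factor of keratinocyte differentiation, read 7.31 and 7.30 in 180U and 5.94 and 5.56 in 180D (-1.55 ± 0.11). The envelope precursor IVL (involucrin) changed by -0.58 ± 0.11, the protease TMPRSS11D by -0.60 ± 0.09, LYPD3, a surface protein of stratified epithelium, by -0.41 ± 0.07 and ANXA1, annexin A1, by -0.37 ± 0.07. ABCA12, a lipid transporter of the epidermal barrier, passed (-0.52 ± 0.07) from levels below the filter value in both groups. The call of KRTDAP ended with the block and without either 180U array or 180D replicate 1 (highest adjusted p 0.0839). The calls of IVL and ANXA1 ended with the block and without either 180U array or 180D replicate 2 (highest adjusted p 0.156 and 0.12 in that order). The call of TMPRSS11D ended with the block and without any 1 of the 4 arrays (highest adjusted p 0.0973). The call of LYPD3 ended with the block and without either 180U array (highest adjusted p 0.122). The call of ABCA12 ended with the block and without 180U replicate 1 or 180D replicate 1 (highest adjusted p 0.0842).

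Against this direction went FLG, filaggrin, a filament-aggregating protein of the granular layer. It read 5.37 and 5.51 in 180U and 7.14 and 6.91 in 180D (1.58 ± 0.10, adjusted p = 0.000319). PADI3, a peptidylarginine deiminase that citrullinates filaggrin and other structural proteins, read 4.67 and 4.60 in 180U and 5.97 and 5.98 in 180D (1.34 ± 0.05, adjusted p = 6.78e-05). Both 180D arrays were above both 180U arrays for each gene, and both calls held. SCEL (sciellin), another envelope precursor, rose by 0.39 ± 0.07. The call of SCEL ended with the block and without either 180U array or 180D replicate 1 (highest adjusted p 0.111). The kallikreins KLK10 and KLK11, serine proteases of squamous epithelium, were outside the list and chosen after their values were seen. They changed by -0.65 ± 0.08 and -0.98 ± 0.09. The call of KLK10 ended with the block (highest adjusted p 0.0505).

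The promoters of 3 of these genes are printed because they lie in 1 gene cluster on chromosome 1 while SPRR1A and SPRR1B fell and FLG rose. They are RefSeq sequences of build GRCh38.p14, from 250 bases before to 50 bases after the start of the gene, written 5′ to 3′ on the strand of the gene. SPRR1A is at chr1:152983831-152984130 on the plus strand, SPRR1B at chr1:153030953-153031252 on the plus strand and FLG at chr1:152325190-152325489 on the minus strand. Capitals mark matches to TGANTCA, the core bound by AP-1, a palindrome read on both strands at once.
SPRR1A: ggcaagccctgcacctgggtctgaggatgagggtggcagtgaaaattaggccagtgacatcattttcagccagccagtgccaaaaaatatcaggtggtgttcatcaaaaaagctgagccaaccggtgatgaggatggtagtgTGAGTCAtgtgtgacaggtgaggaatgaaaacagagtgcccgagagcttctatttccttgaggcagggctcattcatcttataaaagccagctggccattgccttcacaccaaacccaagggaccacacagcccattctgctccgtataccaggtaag
SPRR1B: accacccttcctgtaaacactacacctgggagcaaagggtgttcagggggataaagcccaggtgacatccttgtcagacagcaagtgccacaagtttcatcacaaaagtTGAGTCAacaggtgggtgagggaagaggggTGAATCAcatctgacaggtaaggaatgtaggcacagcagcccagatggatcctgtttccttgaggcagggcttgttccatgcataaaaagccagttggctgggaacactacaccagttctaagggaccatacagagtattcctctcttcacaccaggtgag
FLG: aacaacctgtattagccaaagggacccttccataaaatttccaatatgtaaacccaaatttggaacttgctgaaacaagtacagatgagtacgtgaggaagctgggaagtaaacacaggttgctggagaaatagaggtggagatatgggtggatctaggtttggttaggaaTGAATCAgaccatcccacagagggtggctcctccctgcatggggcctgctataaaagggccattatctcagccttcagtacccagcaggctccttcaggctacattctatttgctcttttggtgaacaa
SPRR1A and FLG had 1 match each and SPRR1B had 2, and SPRR3, KRTDAP and IVL had 1 each. The other called genes of the list were not looked at individually. The match was found in 7.76% of 27305 promoters of this length, in 5.03% of those of 11334 tested genes, in 6.43% of those of 280 genes that rose and in 12.03% of those of 133 that fell. A match to these letters is a description of the window and was not tested as a binding site. AP-1 genes themselves are described with the signalling lists.

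Keratins and lineage factors had few calls. Among 13 tested keratins of stratified epithelium (15.4% called, against 3.75% of all genes) KRT16, a keratin of activated suprabasal cells, fell (8.16 and 8.28 in 180U and 7.15 and 7.30 in 180D, -0.995 ± 0.097), and KRT80 rose from below the filter value, at least 1.69-fold. KRT5 and KRT14, the basal pair, changed by -0.04 ± 0.10 (adjusted p = 0.879) and -0.24 ± 0.10 (adjusted p = 0.259). KRT16 shares long stretches with KRT14, so its probes may read both. The call of KRT80 ended without 180D replicate 1 (highest adjusted p 0.0538). Of 23 squamous lineage transcription factors 1 rose and 2 fell (13% called, against 3.75% of all genes), FOXN1 among them. EHF, an ETS factor of epithelia, read 8.36 and 8.22 in 180U and 9.51 and 9.36 in 180D (1.15 ± 0.07), with 0.97 and 1.13 on its 2 other probe sets, and its call held. KLF4, a factor of late differentiation, changed by -0.33 ± 0.06. The call of KLF4 ended with the block and without any 1 of the 4 arrays (highest adjusted p 0.105). SOX2 changed by -0.03 ± 0.05 (adjusted p = 0.836).

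Few junction genes passed. None of 17 tight junction genes passed, with changes from -0.12 to 0.43. Of 19 desmosome and adherens junction genes PKP2 (plakophilin 2) rose by 0.56 ± 0.07 and the desmosomal cadherin DSC2 changed by -0.38 ± 0.06. That is 10.5% called, against 3.75% of all genes. The call of PKP2 ended without 180U replicate 1 (highest adjusted p 0.0523). The call of DSC2 ended with the block and without any 1 of the 4 arrays (highest adjusted p 0.0934). CDH1 (E-cadherin) read 11.75 and 11.70 in 180U and 11.75 and 11.65 in 180D (-0.02 ± 0.06, adjusted p = 0.868), and its groups overlapped, while its other probe set changed by -0.29. DSG3 and DSC3 changed by -0.31 ± 0.08 (adjusted p = 0.105) and -0.27 ± 0.07 (adjusted p = 0.102). PERP (-0.15 ± 0.05), PKP1 (-0.09 ± 0.25), SFN (-0.25 ± 0.05), TRIM29 (0.07 ± 0.07) and EPCAM (0.01 ± 0.06) did not pass either, with adjusted p from 0.0531 for SFN to 0.929 for EPCAM.

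Some mesenchymal genes rose. Of 18 tested regulators and products of the epithelial-mesenchymal transition 4 rose, none fell and 14 did not pass. That is 22.2% higher, against 2.55% of all genes. MMP2, gelatinase A, which degrades type IV collagen, read 7.14 and 7.16 in 180U and 8.12 and 7.99 in 180D (0.91 ± 0.07, adjusted p = 0.000799), though its other probe set changed by 0.07. FOXC2, a forkhead factor, read 6.23 and 6.23 in 180U and 7.05 and 6.85 in 180D (0.72 ± 0.08). Both calls held, and the groups did not overlap. CDH2 (N-cadherin) read 6.21 and 6.16 in 180U and 6.88 and 7.22 in 180D (0.87 ± 0.12) and AXL, a receptor tyrosine kinase, 5.22 and 5.73 in 180U and 6.41 and 6.18 in 180D (0.82 ± 0.16). The call of CDH2 ended without either 180U array (highest adjusted p 0.0731). The call of AXL ended without 180U replicate 1 or either 180D array (highest adjusted p 0.174). VIM (vimentin) changed by -0.24 ± 0.11 (adjusted p = 0.322), FN1 (fibronectin) by -0.21 ± 0.34 (adjusted p = 0.785) and SNAI2 (Slug) by -0.20 ± 0.05 (adjusted p = 0.11). VIM lay close to the filter value, at 5.08 and 4.74 in 180U and 4.78 and 4.57 in 180D. FN1 lay around it, at 4.92 and 4.08 in 180U and 4.75 and 3.83 in 180D. Its 2 pairs changed by -1.10 and 0.67, and its 4 other probe sets by -0.44 to 0.21. At such levels a fall in either gene could hardly be read. Without 180D replicate 1 the list had 3 higher and none lower. Among 16 atypical cadherins and protocadherins FAT4 was joined by PCDH7 (0.70 ± 0.14), which makes 12.5% higher, against 2.55% of all genes. The call of PCDH7 ended with the block and without 180U replicate 2 or either 180D array (highest adjusted p 0.181).

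Basement membrane and matrix lists, like all lists here drawn up with results known, held more rises than falls. In the list of 22 basement membrane and hemidesmosome genes 5 rose, none fell and 17 did not pass, which is 22.7% higher, against 2.55% of all genes. Next to HMCN1 these were LAMB1, the laminin beta 1 chain, at 4.51 and 4.58 in 180U and 5.55 and 5.59 in 180D (1.03 ± 0.07), COL4A1 at 8.52 and 8.54 in 180U and 9.28 and 9.20 in 180D (0.71 ± 0.05) and COL4A2 at 8.39 and 8.45 in 180U and 9.24 and 9.04 in 180D (0.72 ± 0.08). The chains COL4A1 and COL4A2 form the main type IV collagen and are transcribed from a shared promoter region. The second probe sets of these 3 genes changed by 1.25, 0.72 and 0.59. COL4A6 rose by 0.37 ± 0.07. The call of COL4A6 ended with the block and without any 1 of the 4 arrays (highest adjusted p 0.171). The other 4 calls held, and without 180D replicate 1 the list had 4 higher and none lower.

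Of 32 interstitial matrix genes 6 rose (18.8%) and 2 fell. COL5A2, a chain of type V collagen, read 8.70 and 8.58 in 180U and 9.55 and 9.42 in 180D (0.85 ± 0.07), EFEMP1 (fibulin-3) 9.31 and 9.33 in 180U and 10.04 and 9.93 in 180D (0.66 ± 0.06) and COL12A1, a fibril-associated collagen, 6.57 and 6.34 in 180U and 7.31 and 7.30 in 180D (0.85 ± 0.08). THBS1, thrombospondin 1, an adhesive glycoprotein that can activate latent TGF-beta, rose by 0.57 ± 0.06, and its 4 other probe sets changed by 0.09 to 0.84. The groups did not overlap in any of these 4 genes, and the calls held. COL1A1 and PLOD2, a collagen-modifying enzyme, rose by 0.58 ± 0.11 and 0.37 ± 0.07, and FBN2 and TNC changed by -0.50 ± 0.07 and -0.38 ± 0.07. The calls of COL1A1 and FBN2 ended with the block and without either 180U array or 180D replicate 1 (highest adjusted p 0.153 and 0.0865 in that order). The call of PLOD2 ended with the block and without any 1 of the 4 arrays (highest adjusted p 0.165). The call of TNC ended with the block and without 180U replicate 1 or either 180D array (highest adjusted p 0.127).

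Proteases moved in opposite directions. Among 28 metalloproteinases and their inhibitors (14.3% called, against 3.75% of all genes) MMP2 and MMP16 rose and MMP1 and ADAM12 (-0.36 ± 0.07) fell. The 4 other probe sets of ADAM12 changed by -0.08 to 0.22. In the list of 21 plasminogen and serpin genes PLAT, TFPI (0.33 ± 0.05) and SERPINF1 (0.41 ± 0.09) rose and SERPINB3 and SERPINB1 (-0.34 ± 0.06) fell. That is 23.8% called, against 3.75% of all genes. PLAU (urokinase) changed by -0.02 ± 0.09 (adjusted p = 0.932) and its receptor PLAUR by 0.15 ± 0.05 (adjusted p = 0.187). The calls of ADAM12, SERPINF1 and SERPINB1 ended with the block and without any 1 of the 4 arrays (highest adjusted p 0.141, 0.172 and 0.128 in that order). The call of TFPI ended with the block and without either 180U array or 180D replicate 1 (highest adjusted p 0.101).

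No integrin passed the threshold, whereas some of their cytoplasmic partners did. None of 15 integrin subunits passed, with changes from -0.30 for ITGA6 (adjusted p = 0.184) to 0.27. Of 33 focal adhesion adaptors 4 rose and 1 fell (15.2% called, against 3.75% of all genes). FERMT2 (kindlin-2), which activates integrins together with talin, read 6.65 and 6.66 in 180U and 7.82 and 7.73 in 180D (1.12 ± 0.06, adjusted p = 0.000125). NEDD9, a Cas-family scaffold of focal adhesions, read 8.23 and 8.23 in 180U and 9.23 and 9.12 in 180D (0.95 ± 0.06, adjusted p = 0.000266), with 0.10 and 0.63 on its 2 other probe sets. Both 180D arrays lay above both 180U arrays in each gene, and the calls held. PARVA (parvin alpha) and TRIP6 rose by 0.48 ± 0.07 and 0.29 ± 0.06, and FHL2 changed by -0.39 ± 0.05. The call of PARVA ended with the block and without 180U replicate 1 or either 180D array (highest adjusted p 0.0685). The call of TRIP6 ended with the block and without either 180U array or 180D replicate 1 (highest adjusted p 0.148). The call of FHL2 ended with the block and without 180U replicate 2 or 180D replicate 1 (highest adjusted p 0.0646).

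Actin regulators rose in small number. Of 57 genes 6 rose and none fell, 10.5% against 2.55% of all genes. Next to LIMCH1, CNN3 (calponin 3), which binds actin and tropomyosin, read 7.53 and 7.52 in 180U and 8.48 and 8.41 in 180D (0.92 ± 0.05), and both calls held. ARHGAP29, a GTPase-activating protein, the Cdc42 effectors CDC42EP3 and CDC42EP1 and the GTPase RHOB rose by 0.48 ± 0.06, 0.40 ± 0.07, 0.34 ± 0.07 and 0.39 ± 0.07. The call of ARHGAP29 ended without 180D replicate 1 (highest adjusted p 0.0526). The calls of CDC42EP3, CDC42EP1 and RHOB ended with the block and without either 180U array or 180D replicate 1 (highest adjusted p 0.0978, 0.144 and 0.112 in that order). Without 180D replicate 1 the list had 2 higher and none lower. Of 18 linkers of the ERM and band 4.1 families 4 rose and 1 fell (27.8% called, against 3.75% of all genes). EPB41L1 read 6.50 and 6.55 in 180U and 7.37 and 7.15 in 180D (0.74 ± 0.08) and its call held, although its 2 other probe sets changed by only 0.08 and 0.33. FRMD5, EPB41L2 and MYLIP changed by 0.86 ± 0.11, 0.33 ± 0.06 and -0.36 ± 0.07. The call of FRMD5 ended without 180D replicate 1 (highest adjusted p 0.0538). The call of EPB41L2 ended with the block and without any 1 of the 4 arrays (highest adjusted p 0.109). The call of MYLIP ended with the block and without either 180U array or 180D replicate 1 (highest adjusted p 0.12).

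TGF-beta and Hippo-related transcripts mostly rose where they passed. In the TGF-beta list of 37 genes 8 rose and 2 fell (27% called, against 3.75% of all genes), and 6 of the rises held. TGFBR2, the type II receptor, read 8.87 and 9.01 in 180U and 9.77 and 9.55 in 180D (0.72 ± 0.08) and FSTL1, a follistatin-like secreted protein, 8.74 and 8.83 in 180U and 9.41 and 9.28 in 180D (0.56 ± 0.07). The other 4 that held, NEDD9, COL4A1, COL4A2 and THBS1, are also counted in the adhesion and matrix lists. BMP2 and the inhibitory SMAD6 rose by 0.41 ± 0.07 and 0.65 ± 0.11, and TSC22D1 changed by -0.23 ± 0.05. The call of BMP2 ended with the block and without either 180U array or 180D replicate 1 (highest adjusted p 0.122). The call of SMAD6 ended with the block and without 180U replicate 2 or either 180D array (highest adjusted p 0.134). The call of TSC22D1 ended with the block and without any 1 of the 4 arrays (highest adjusted p 0.132). Among 26 targets of YAP and TEAD, the effectors of Hippo signalling, 6 rose and 1 fell (26.9% called, against 3.75% of all genes). F3 (tissue factor) read 9.19 and 9.20 in 180U and 9.81 and 9.79 in 180D (0.60 ± 0.05) and IGFBP3, which binds insulin-like growth factors, 9.77 and 9.75 in 180U and 10.51 and 10.36 in 180D (0.67 ± 0.06), and these calls held with that of RBMS3. ANKRD1 passed (0.58 ± 0.05) with both groups below the filter value, AXL is given above and LATS2, a kinase that restrains YAP, rose by 0.38 ± 0.07. The call of LATS2 ended with the block and without either 180U array or 180D replicate 1 (highest adjusted p 0.117). The member that fell was NT5E. CCN1 and CCN2, the best-known targets, changed by -0.16 ± 0.08 (adjusted p = 0.353) and 0.72 ± 0.17 (adjusted p = 0.0746), a pair chosen after their values were seen.

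In the EGFR list the few calls were falls. Of 34 receptors, ligands and feedback regulators of the EGFR and ERK pathway 5 fell, none rose and 29 did not pass, 14.7% lower against 1.21% of all genes. ETV5, an ETS factor induced by ERK, read 6.25 and 6.41 in 180U and 5.58 and 5.59 in 180D (-0.74 ± 0.09), and DUSP4, a phosphatase of ERK, 5.44 and 5.25 in 180U and 4.59 and 4.88 in 180D (-0.61 ± 0.11). FGFBP1, a carrier of fibroblast growth factors, the EGFR ligand TGFA and the early gene IER3 changed by -0.44 ± 0.06, -0.33 ± 0.06 and -0.23 ± 0.05. The groups did not overlap, but the list's median change was 0.03, and none of the 5 calls held. The call of ETV5 ended without 180U replicate 2 or 180D replicate 1 (highest adjusted p 0.067). The call of DUSP4 ended without either 180U array or 180D replicate 1 (highest adjusted p 0.141). The call of FGFBP1 ended with the block and without 180U replicate 2 or 180D replicate 1 (highest adjusted p 0.0643). The calls of TGFA and IER3 ended with the block and without any 1 of the 4 arrays (highest adjusted p 0.143 and 0.132 in that order). Without 180D replicate 1 none of the 34 passed.

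Of 21 AP-1 and immediate early genes ATF3 rose (6.32 and 6.30 in 180U and 6.82 and 6.89 in 180D, 0.55 ± 0.07, with 0.10 on its other probe set), as a member also of the ATF4 and unfolded protein list, and FOS passed (0.51 ± 0.06) with both groups below the filter value. Both calls held, although that of FOS is not read as a rise. In the Wnt list (34 genes) FZD10 fell, and LGR4, a receptor for R-spondins, and FZD1 rose by 0.53 ± 0.09 and 0.57 ± 0.10. In the Notch list (24 genes) the target HEY1 fell (8.93 and 8.94 in 180U and 8.33 and 8.48 in 180D, -0.53 ± 0.06) and its call held, while the ligand DLL1 rose by 0.40 ± 0.07. Of the AP-1, Wnt and Notch lists 9.52%, 8.82% and 8.33% were called, against 3.75% of all genes. The call of LGR4 ended with the block and without 180U replicate 2 or 180D replicate 1 (highest adjusted p 0.12). The call of FZD1 ended with the block and without any 1 of the 4 arrays (highest adjusted p 0.118). The call of DLL1 ended with the block and without either 180U array or 180D replicate 1 (highest adjusted p 0.123).

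Guidance molecules and secreted peptides changed in both directions. NTN4, a laminin-related netrin of basement membranes, read 4.54 and 4.56 in 180U and 5.50 and 5.54 in 180D (0.98 ± 0.05, adjusted p = 0.000199), and its call held. The list of semaphorins and their receptors (29 genes) also held SEMA3C and ROBO1, and that of Eph receptors and ephrins (15 genes) EPHA4 and EPHB6, which changed by 0.38 ± 0.06, -0.38 ± 0.06, 0.41 ± 0.07 and -0.55 ± 0.09. Of the semaphorin and Eph lists 10.3% and 13.3% were called, against 3.75% of all genes. The call of SEMA3C ended with the block and without either 180U array (highest adjusted p 0.0769). The call of ROBO1 ended with the block and without 180U replicate 2 or 180D replicate 1 (highest adjusted p 0.0986). The call of EPHA4 ended with the block and without any 1 of the 4 arrays (highest adjusted p 0.12). The call of EPHB6 ended with the block and without 180U replicate 2 or either 180D array (highest adjusted p 0.121). In the list of 19 neuropeptides, neurotrophins and granins 3 rose (SCG2, GLRB, NMU) and 3 fell (NTS, BDNF, GAL). That is 31.6% called, against 3.75% of all genes. NMU, neuromedin U, read 7.02 and 7.04 in 180U and 7.91 and 7.96 in 180D (0.91 ± 0.08), and its call held. GAL, galanin, changed by -0.48 ± 0.07. The call of GAL ended without any 1 of the 4 arrays (highest adjusted p 0.0825). In the IGF list of 18 genes 2 rose and 2 fell (22.2% called, against 3.75% of all genes). IGFBP7, a secreted IGF-binding protein of vessel walls and matrix, read 6.99 and 6.92 in 180U and 7.94 and 7.95 in 180D (0.99 ± 0.05, adjusted p = 0.000145), with 1.61 on its other probe set, whereas IGFBP6, which prefers IGF2, fell (10.11 and 10.17 in 180U and 9.59 and 9.67 in 180D, -0.50 ± 0.06). Both calls held. GRB10, an adaptor that restrains insulin receptors, changed by -0.59 ± 0.09, and CDK6, the only call among 18 G1 cyclin and CDK genes, by 0.37 ± 0.06. Of the G1 list 5.56% were called, against 3.75% of all genes. The call of GRB10 ended with the block and without any 1 of the 4 arrays (highest adjusted p 0.0946). The call of CDK6 ended with the block and without either 180U array or 180D replicate 1 (highest adjusted p 0.0854).

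Interferon-stimulated genes split. Of 46 tested 8 rose, 2 fell and 36 did not pass, with a median change of 0.14. That is 21.7% called, against 3.75% of all genes. IFIT3 read 6.17 and 5.97 in 180U and 6.95 and 7.02 in 180D (0.91 ± 0.08, adjusted p = 0.00154) and IFIT2 6.13 and 6.06 in 180U and 6.68 and 6.63 in 180D (0.55 ± 0.06). Both belong to the tetratricopeptide family that binds viral RNA. IFI27, a small mitochondrial protein used as a marker of interferon exposure, read 7.06 and 7.06 in 180U and 5.39 and 5.42 in 180D (-1.65 ± 0.07, adjusted p = 6.78e-05). Each of these 3 separated the groups without overlap, in opposite directions, and their calls held. IFI6, a relative of IFI27, read 8.54 and 8.65 in 180U and 7.77 and 8.04 in 180D (-0.69 ± 0.10). The other risers were HERC5 (0.57 ± 0.09), IFITM2 (0.31 ± 0.05), DDX60 (0.33 ± 0.06), IFIT1 (0.35 ± 0.07), IFI16 (0.27 ± 0.05) and IFITM3 (0.27 ± 0.06). The calls of IFI6 and IFITM2 ended with the block and without either 180U array or 180D replicate 1 (highest adjusted p 0.0974 and 0.0869 in that order). The calls of HERC5, DDX60, IFIT1, IFI16 and IFITM3 ended with the block and without any 1 of the 4 arrays (highest adjusted p 0.108, 0.109, 0.137, 0.122 and 0.154 in that order). With arrays centred on their medians the list had 4 higher and 2 lower.

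Among 21 genes of interferon signalling IRF9, the DNA-binding subunit of ISGF3, read 8.07 and 8.10 in 180U and 8.63 and 8.62 in 180D (0.54 ± 0.05), and its call held. STING1 rose by 0.69 ± 0.11 and CGAS, the DNA sensor upstream of it, changed by -0.62 ± 0.11. Of this list 14.3% were called, against 3.75% of all genes. The call of STING1 ended with the block and without either 180U array (highest adjusted p 0.109). The call of CGAS ended with the block and without 180U replicate 2 or either 180D array (highest adjusted p 0.15). None of 22 genes of MHC class I and antigen processing passed. The promoters of IFIT3 and IFI27 are shown as examples of the 2 directions. They are RefSeq windows of the same design, IFIT3 at chr10:89327747-89328046 and IFI27 at chr14:94110486-94110785, both on the plus strand. Capitals mark matches to GAAANNGAA or, on the other strand, TTCNNTTTC, a core of the element bound by ISGF3 and IRF factors.
IFIT3: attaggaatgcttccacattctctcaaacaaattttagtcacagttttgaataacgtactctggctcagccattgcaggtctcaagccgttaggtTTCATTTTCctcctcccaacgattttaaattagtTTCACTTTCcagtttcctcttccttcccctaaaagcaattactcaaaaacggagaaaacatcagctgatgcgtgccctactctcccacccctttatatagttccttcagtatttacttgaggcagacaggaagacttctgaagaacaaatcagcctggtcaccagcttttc
IFI27: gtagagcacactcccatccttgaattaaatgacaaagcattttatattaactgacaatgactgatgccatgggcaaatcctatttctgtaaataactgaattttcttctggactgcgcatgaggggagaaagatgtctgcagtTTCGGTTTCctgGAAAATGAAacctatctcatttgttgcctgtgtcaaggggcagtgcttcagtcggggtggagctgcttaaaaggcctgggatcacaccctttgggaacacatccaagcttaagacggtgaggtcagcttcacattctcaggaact
Both promoters had 2 matches, IFIT1 had 2 and IFI6 had 3. Among the other risers HERC5 had 3, DDX60 and IFITM3 had 2 each and IFI16 had 0. A match was present in 8.29% of all promoters, 6.03% of those of tested genes, 7.86% for the genes that rose and 8.27% for those that fell.

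Of 33 cytokines and NF-kB targets CXCL8 (interleukin-8), LIFR and IL1RAP rose by 0.90 ± 0.11, 0.43 ± 0.05 and 0.42 ± 0.08, and CXCL14, a chemokine of normal squamous epithelium, changed by -0.86 ± 0.13. That is 12.1% called, against 3.75% of all genes. The call of CXCL8 ended without 180U replicate 2 (highest adjusted p 0.0541). The call of LIFR ended with the block (highest adjusted p 0.05). The call of IL1RAP ended with the block and without any 1 of the 4 arrays (highest adjusted p 0.138). The call of CXCL14 ended without 180U replicate 1 or 180D replicate 1 (highest adjusted p 0.112).

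Several metallothioneins rose by small amounts. Of 15 metallothioneins and zinc transporters 7 rose, none fell and 8 did not pass, 46.7% higher against 2.55% of all genes. MT2A, the main isoform of most cells, read 10.30 and 10.29 in 180U and 10.72 and 10.70 in 180D (0.42 ± 0.05), and its call was the only one of the 7 that held. The values of SLC39A8, a zinc importer, were 6.42 and 6.26 in 180U and 7.03 and 7.32 in 180D (0.83 ± 0.10). MT1H, MT1G, MT1X, MT1F and the zinc exporter SLC30A1 changed by 0.43 ± 0.06, 0.36 ± 0.05, 0.35 ± 0.05, 0.31 ± 0.06 and 0.36 ± 0.06. The MT1 genes are near-identical copies, so their probe sets may read 1 shared signal. The call of SLC39A8 ended without 180U replicate 2 (highest adjusted p 0.0544). The call of MT1H ended without 180U replicate 1 or 180D replicate 1 (highest adjusted p 0.0723). The calls of MT1G, MT1X, MT1F and SLC30A1 ended with the block and without either 180U array or 180D replicate 1 (highest adjusted p 0.0775, 0.0758, 0.141 and 0.0924 in that order). Without 180D replicate 1 the list had 2 higher. The promoter of MT2A, at chr16:56608334-56608633 on the plus strand, is printed with capitals on TGCNCNC or GNGNGCA, the core of the metal response element bound by MTF1.
MT2A: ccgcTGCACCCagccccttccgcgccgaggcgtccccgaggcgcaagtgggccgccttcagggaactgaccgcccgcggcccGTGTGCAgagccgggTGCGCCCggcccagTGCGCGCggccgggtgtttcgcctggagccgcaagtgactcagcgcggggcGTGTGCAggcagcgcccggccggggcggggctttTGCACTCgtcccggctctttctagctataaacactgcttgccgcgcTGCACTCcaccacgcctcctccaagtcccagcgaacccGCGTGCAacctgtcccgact
MT2A and MT1H had 8 matches each, MT1X had 4 and SLC30A1 had 2, and 2.78% of all promoters had 4 or more. At least 1 match is common, with 55.2% of all promoters and 63.3% of those of tested genes. It was found in 64.6% of those of genes that rose and 60.9% of those of genes that fell.

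A minority of sterol genes rose. Of 22 genes of cholesterol synthesis and other targets of SREBP2 5 rose, none fell and 17 did not pass, 22.7% higher against 2.55% of all genes, with a median of 0.16. INSIG1, which holds SREBP in the endoplasmic reticulum when sterols are high, read 8.25 and 8.17 in 180U and 8.77 and 8.85 in 180D (0.60 ± 0.06), and its call held. The others were HMGCS1 (0.39 ± 0.05), IDI1 (0.35 ± 0.06), ACAT2 (0.28 ± 0.05) and STARD4 (0.33 ± 0.06). The calls of HMGCS1 and IDI1 ended with the block and without either 180U array or 180D replicate 1 (highest adjusted p 0.0625 and 0.087 in that order). The calls of ACAT2 and STARD4 ended with the block and without any 1 of the 4 arrays (highest adjusted p 0.107 and 0.147 in that order). With arrays centred on their medians 3 passed. Of 22 fatty acid genes SCD, a desaturase, rose by 0.25 ± 0.05, and ELOVL6 and ACSL1 changed by -0.39 ± 0.06 and -0.31 ± 0.05. That is 13.6% called, against 3.75% of all genes. The call of SCD ended with the block and without any 1 of the 4 arrays (highest adjusted p 0.118). The calls of ELOVL6 and ACSL1 ended with the block and without either 180U array or 180D replicate 1 (highest adjusted p 0.0974 and 0.106 in that order).

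Few proliferation genes passed. None of 43 replication and S phase genes passed, with changes from -0.29 to 0.22. Of 50 mitosis genes KIF20A, UBE2C and AURKA rose by 0.29 ± 0.05, 0.30 ± 0.05 and 0.28 ± 0.05. That is 6% higher, against 2.55% of all genes. The calls of KIF20A and AURKA ended with the block and without any 1 of the 4 arrays (highest adjusted p 0.101 and 0.122 in that order). The call of UBE2C ended with the block and without either 180U array or 180D replicate 1 (highest adjusted p 0.104). Among 24 p53 targets GDF15, a stress cytokine of the TGF-beta superfamily, rose at least 1.50-fold from below the filter value, and CCNG1 (cyclin G1) read 9.98 and 9.95 in 180U and 10.39 and 10.39 in 180D (0.43 ± 0.05), and both calls held. The other probe set of GDF15 changed by only 0.23. Of the p53 list 8.33% were higher, against 2.55% of all genes. In the hypoxia and glycolysis list (39 genes) MXI1, an antagonist of MYC, fell (9.89 and 9.93 in 180U and 9.42 and 9.36 in 180D, -0.52 ± 0.06) and held, while DDIT4 and NDRG1 changed by 0.51 ± 0.07 and -0.37 ± 0.05. The call of DDIT4 ended without 180U replicate 2 (highest adjusted p 0.0566). The call of NDRG1 ended with the block and without 180U replicate 1 or 180D replicate 1 (highest adjusted p 0.067). None of 34 NRF2 targets and none of 37 cytosolic ribosomal proteins passed. In the unfolded protein list CEBPB and SEL1L rose by 0.28 ± 0.05 and 0.27 ± 0.05, although the 2 other probe sets of SEL1L changed by -0.52 and -0.03. The calls of CEBPB and SEL1L ended with the block and without any 1 of the 4 arrays (highest adjusted p 0.12 and 0.117 in that order). Among 14 S100 genes S100P rose by 0.62 ± 0.09. The call of S100P ended without either 180U array (highest adjusted p 0.0863). Of 37 lysosomal genes CTSC, cathepsin C, fell (10.93 and 11.06 in 180U and 10.50 and 10.47 in 180D, -0.51 ± 0.06) and held with SYTL5, GPNMB fell, and CTSS and CTSH rose by 0.52 ± 0.08 and 0.30 ± 0.05. The calls of CTSS and CTSH ended with the block and without any 1 of the 4 arrays (highest adjusted p 0.0931 and 0.0925 in that order). ALDH7A1 and PROCR, from the list of aldehyde dehydrogenases and stem markers (25 genes), rose by 0.45 ± 0.05 and 0.46 ± 0.05, and their calls held. Of the hypoxia, unfolded protein, S100, lysosomal and aldehyde dehydrogenase lists 7.69%, 6.98%, 7.14%, 13.5% and 12% were called, against 3.75% of all genes.

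**Figure D3:**
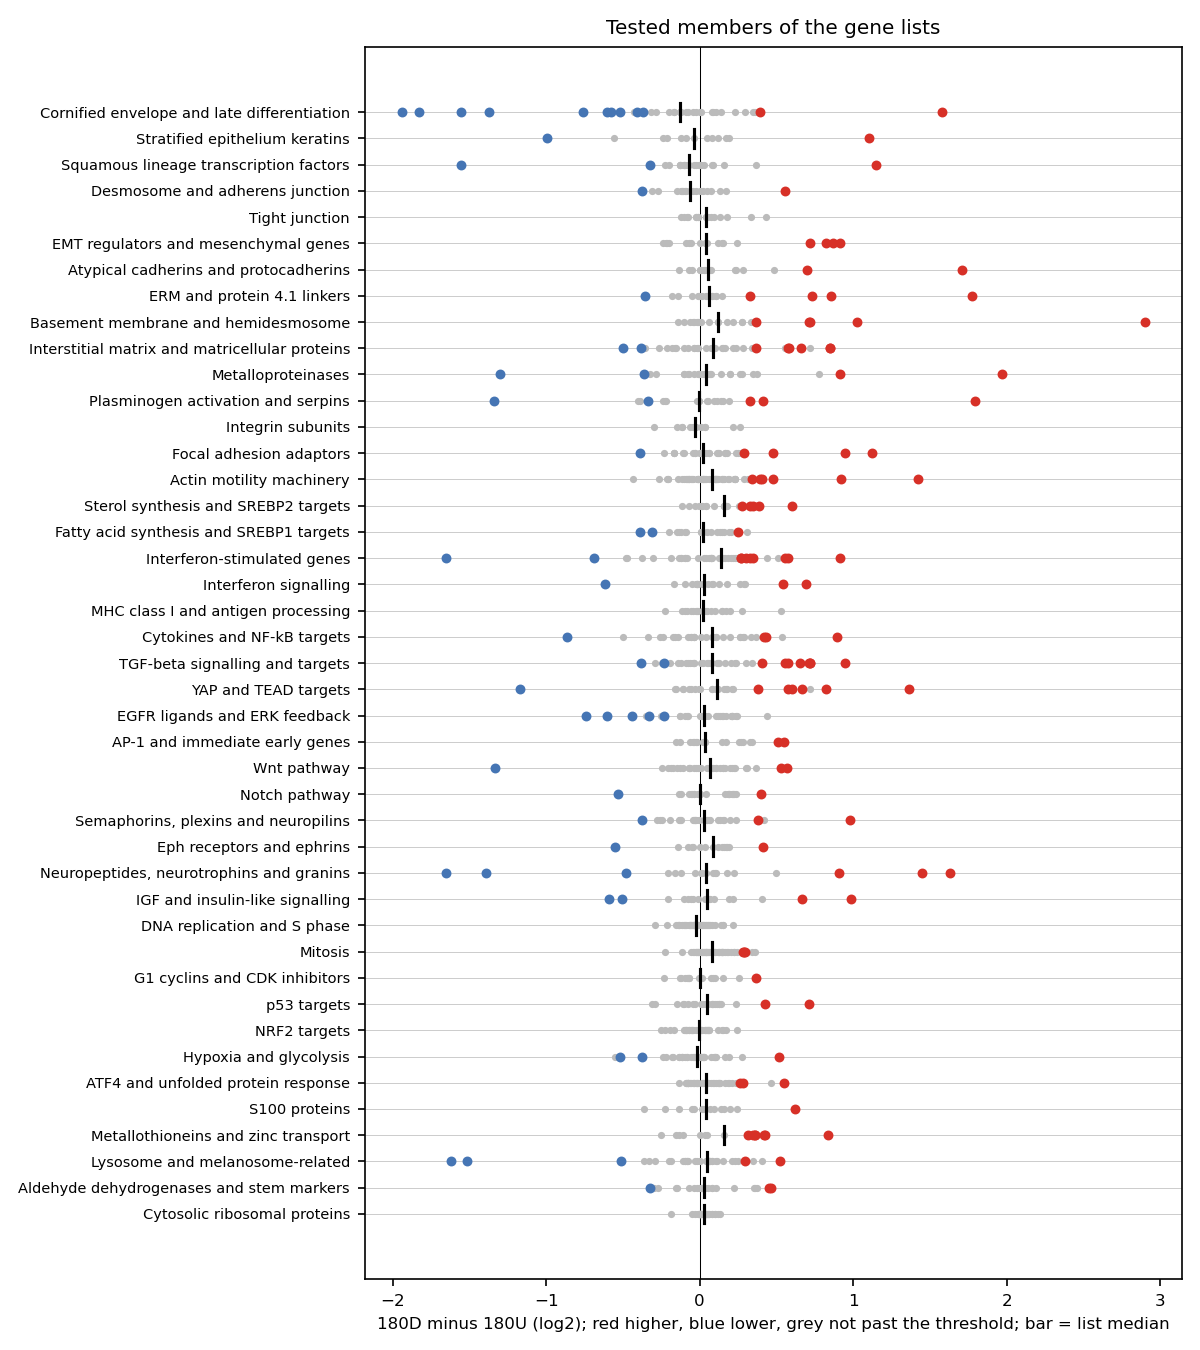
Each row is 1 of 43 gene lists and each dot a tested member placed by its log2 change, 180D minus 180U, in red if higher, blue if lower and grey if not past the threshold, with a black bar at the list's median. Red dots stand alone in the rows of metallothioneins, sterol synthesis, basement membrane and actin genes, and blue dots prevail in the row of the cornified envelope and stand alone in that of EGFR ligands.

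Over all 43 lists 101 of 1131 tested genes were higher and 48 lower, 13.2% in all. Genes in more than 1 list were counted once. Since the lists were drawn up with results of these data known, that share says nothing about lists in general. The mean levels of markers of other cell types stayed low or level, though each list had members above the filter value. The fibroblast list (11 genes on the array, 4 past the filter) averaged 4.17 and 4.29 in 180U and 4.35 and 4.28 in 180D. COL1A1 was its only member to pass, with PDGFRB, THY1 and DCN also above the filter value. The 12 immune and 10 endothelial markers averaged 4.12 to 4.24 and 4.22 to 4.35 on the 4 arrays and the 10 neural and melanocytic ones 5.58 to 5.65, without a call. The 17 glandular markers averaged 6.12 to 6.19, and of these KRT7 and GATA6 rose by 0.40 ± 0.06 and 0.47 ± 0.06. Above the filter value in KYSE180 were 5 immune, 5 endothelial, 7 neural and melanocytic and 13 glandular markers. KRT8, KRT18 and KRT19 were among the glandular ones. The call of KRT7 ended with the block and without 180U replicate 1 or either 180D array (highest adjusted p 0.0986). The call of GATA6 ended without either 180U array or 180D replicate 1 (highest adjusted p 0.0639). The part of other cell types in the matrix result was not tested.

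Genes that changed together were in places neighbours in the genome. By gene order in RefSeq (GRCh38.p14), 79 of the called genes lay in 35 runs of adjacent tested genes called in the same direction, and 7 runs held 3 or more. These runs were looked for after the data were seen, and whether they exceed what gene order alone would give was not tested. On chromosome 4 PDGFC and GLRB were followed by GASK1B (0.79 ± 0.07) and TMEM144 (0.36 ± 0.06). On chromosome 1 F3, SLC44A3 (0.62 ± 0.06) and CNN3 rose, and elsewhere on it SPRR1A, SPRR3 and SPRR1B fell. RAB20 (0.57 ± 0.06) rose next to COL4A1 and COL4A2 on chromosome 13, and IFIT2, IFIT3 and IFIT1 rose on chromosome 10. On chromosome 16 the run was MT1F, MT1G, MT1H and MT1X, and on the X chromosome XK (-0.26 ± 0.05) and DYNLT3 (-0.28 ± 0.05) fell beside SYTL5. The call of TMEM144 ended with the block and without either 180U array (highest adjusted p 0.0825). The calls of XK and DYNLT3 ended with the block and without any 1 of the 4 arrays (highest adjusted p 0.117 and 0.112 in that order). FLRT2 (0.92 ± 0.05), an adhesion protein next to SEL1L on chromosome 14, is from a run of 2. Chromosome 20 had 16 higher and 0 lower of 426 tested genes (3.76% called, against 3.75% of all genes). The highest share called was 7.64% on chromosome 4, followed by 7.44% on chromosome 13. Over windows of 25 adjacent genes the median change ran from -0.13 to 0.22, and the highest window, on chromosome 14 between CEP128 and TRIP11, read 0.18 and 0.21 in the 2 pairs.

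**Figure D4:**
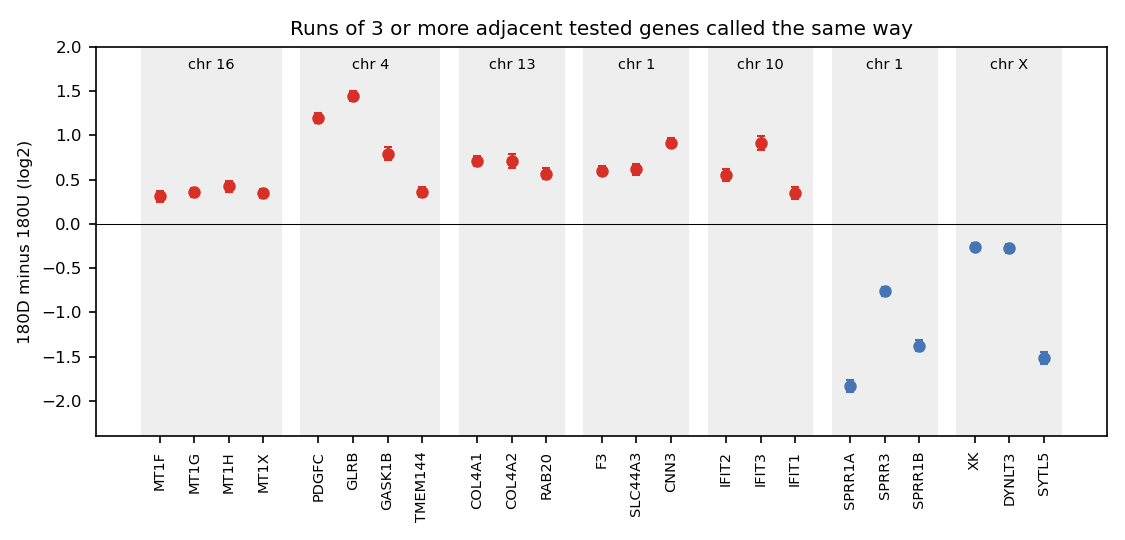
Log2 change, 180D minus 180U, with SE bars, for the genes of the 7 runs of 3 or more adjacent tested genes that passed in the same direction, each run on a grey band with its chromosome. The runs of chromosomes 16, 4, 13 and 10 and 1 of chromosome 1 rose, and the SPRR run and the X chromosome run fell.

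Most changes of KYSE180 differed from those of KYSE30 selected in the same way. A direct test of the difference between the lines passed for 1723 of all 14180 genes (12.2%) and for 362 of the 532 called in KYSE180. The 532 were chosen by 1 side of this difference, so the share among them is raised by that choice. KYSE30 itself called 2346 genes. The 253 genes called in both lines are 47.6% of the KYSE180 calls and 10.8% of the KYSE30 calls, and 102 of them changed in the same direction and 151 in opposite directions. Of the 151, 111 were higher in 180D and lower in 30D.

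EPB41L4A had the widest gap, with 1.77 in KYSE180 and -2.20 in KYSE30 (adjusted p of the difference 2.48e-05). LIMCH1 (-1.17 in KYSE30), NEDD9 (-1.29), COL12A1 (-1.66), IGFBP7 (-0.82) and EFEMP1 (-0.68), all raised in 180D, fell in 30D. PDGFC and GLRB, neighbours on chromosome 4, fell in 30D as well, by 0.79 and 0.69. IFI27 and IFI6, both lower in 180D, rose in 30D by 1.85 and 1.96, IFI27 from below the filter value. SPRR1A, SPRR1B and MMP1 were opposite too (0.58, 0.46 and 0.65 in KYSE30, although MMP1 lay below the filter value there). Shared directions included LGALS1, which rose by 0.48 in 30D, and FOXC2, by 0.83, and SPRR3, which fell by 0.93. MT2A rose by 0.83 in 30D, and IRF9 by 0.91. PLAT, FAT4 and FERMT2 showed changes of -0.09, -0.01 and 0.04 in KYSE30 and differed between the lines, with adjusted p of 0.00017, 0.000894 and 0.000425.

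**Figure D5:**
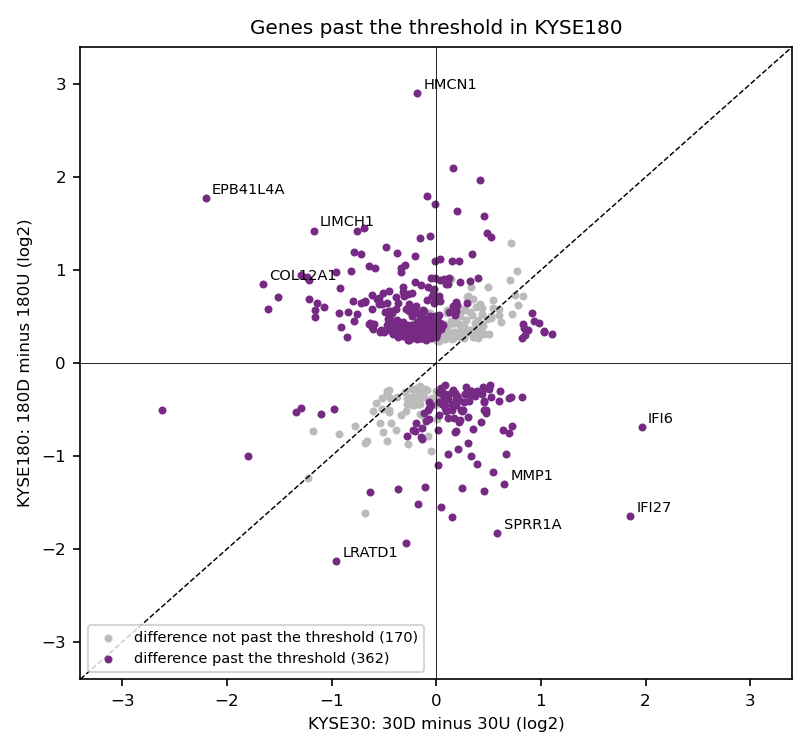
Log2 change from U to D in KYSE30 (x axis) and KYSE180 (y axis) of the 532 genes past the threshold in KYSE180, with the dashed line marking equal change. Purple points are the 362 genes whose change differed between the lines, and EPB41L4A and LIMCH1 (upper left) and IFI27 and IFI6 (lower right) lie furthest into the quadrants of opposite direction.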

How the data were processed

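RNA of 8 cultures, 4 of them KYSE180, was read on Affymetrix arrays with 54675 probe sets. Per the submitters' processing notes the authors ran RMA, and the deposited table holds its log2 values. For the version of RMA, the sources used here give nothing. Log2 values ran from 1.44 to 14.01. Probe sets with 1 gene symbol (41091) were kept, probe sets below the 40th percentile of mean level (4.46, the filter value) dropped, and each gene represented by its brightest probe set, giving 14180 genes. Symbols were updated through RefSeq (GRCh38.p14), which matched 41037 probe sets. Where 1 group lay below the filter value, a fold is measured from that value as a lower bound. It is not a detection call.

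A limma 3.58.1 fit (R 4.3.3) of 4 group means over all 8 arrays gave changes with Benjamini-Hochberg adjusted p and a threshold of 0.05, and was tested on simulated data. The labels name which sublines share a parental population, so these pair the arrays. Deviations of paired KYSE180 arrays from their group means correlated with r = 0.02. MicroRNA arrays mentioned in the labels were not analysed here, and 1 control transcript is not reported here.

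The 40 leading genes are the 20 with the largest rise and 20 with the largest fall past the threshold with the same sign in both pairs. Up to 4 genes per list with the smallest p were named, also the squamous markers and CDH2, VIM, FN1, SNAI2, ITGA6, MMP1 and MMP2, and other members where at most 5 of a list, or the 6 to 8 risers or 10 fallers of a list, were given in full. CCN1, CCN2, PLAU, PLAUR, KLK10, KLK11 and the neighbouring genes were picked after their values were seen. Members, lists and rules were chosen with earlier results of these data known. Alternatives changed the filter, probe set rule, centring, samples, block, trend, weights and covariate.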

Additional observations from a re-analysis of the deposited data

Results flagged for a closer look

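The change from non-passing to passing cells was compared directly between KYSE180 and KYSE30 (limma, difference of differences, 180D minus 180U less 30D minus 30U). Of 133 genes named for their call in KYSE180, 106 differed between the lines. Listed here are 64 of these, namely 37 of the 40 leading genes, and the list members that passed in both lines in opposite directions (39 in all, 29 of them higher and 10 lower in 180D, some of them leading genes). The largest adjusted p among the 64 was 0.0438. Most of the listed differences were positive, meaning that 180D rose more, or fell less, than 30D. Among adhesion and cytoskeletal genes the difference was 3.98 for EPB41L4A, 2.60 for LIMCH1, 2.24 for NEDD9, 1.24 for PCDH7, 1.35 for EPB41L1, 1.72 for FAT4, 0.98 for PKP2 and 0.84 for AFAP1L2. For RHOBTB3, which is in none of these groups, it was 1.74. For matrix proteins and matrix-bound factors it was 3.08 for HMCN1, 2.51 for COL12A1, 2.18 for VIT, 1.36 for LAMB1, 1.33 for EFEMP1, 1.31 for NTN4, 0.83 for THSD4, 0.91 for LGALS1 and 1.81 for IGFBP7. Secreted factors, proteases and receptors gave 2.23 for GDF15, 2.14 for GLRB, 1.98 for PDGFC, 1.88 for PLAT, 1.73 for FZD1, 1.55 for MMP16, 1.43 for SCG2, 1.28 for LGR4 and 1.02 for EPHA4. Transcription factors and stress genes gave 2.19 for ANKRD1, 1.56 for IRX1, 1.39 for ATF3, 1.06 for CCNG1, 0.74 for FOS, 1.42 for RBMS3 and 1.94 for PRR16. Sterol and fatty acid genes gave 1.67 for INSIG1, 1.01 for HMGCS1, 0.88 for IDI1, 0.53 for ACAT2 and 0.52 for SCD. Epithelial and interferon genes with a positive difference were 1.50 for PADI3, 1.13 for FLG and 1.04 for IFIT2. PLA2G4A fell in both lines, less in KYSE180, with a difference of 0.80. Negative differences, with 180D lower than 30D relative to the U sublines, were found for the interferon-stimulated genes at -3.50 for IFI27 and -2.65 for IFI6. Squamous differentiation genes read -2.41 for SPRR1A, -1.83 for SPRR1B, -1.65 for KRTDAP, -1.60 for FOXN1, -1.59 for SERPINB3 and -1.33 for KRT16. Proteases, peptides and surface enzymes read -1.95 for MMP1, -1.81 for NTS, -1.71 for NT5E, -1.19 for ADAM12, -0.75 for BDNF and -0.77 for TGFA. The remaining negative differences were -1.47 for DNAJC6, -1.34 for SYTL5, -1.23 for FZD10, -1.17 for LRATD1, -1.11 for IRAG2, -1.07 for NDRG1 and -0.98 for TRIM9. The 180U means of HMCN1, MMP16, PLAT, GLRB, VIT and GDF15 and the 180D mean of LRATD1 were under the filter value. So were the 30D means of VIT and PLA2G4A and the 30U mean of IFI27. The sizes of these differences are therefore uncertain. ANKRD1 and FOS lay below the filter value in both KYSE180 groups. HMCN1, FLG, RBMS3, IRX1, KRTDAP, FOXN1, SERPINB3, NTS, FZD10, TRIM9 and MMP1 lay below it in both KYSE30 groups. A fall there could hardly be read. MMP1 and FLG nevertheless passed in KYSE30, with changes of 0.65 and 0.45 at these levels, which are part of their differences. For the other genes below it in KYSE30 the KYSE30 change did not pass, and the difference rests mainly on the KYSE180 change. The group means rest on 2 arrays each, which is too few for a check of single arrays against their group.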

How the results depend on the processing

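Of 133 named genes with a call, 51 kept it under each of the 16 alternatives that tested them, 89 with the parental population as a replicate block and 78 without 180D replicate 1. The 532 calls became 311 with no filter on dim probe sets, 195 with the KYSE180 arrays only, 219 with array weights, 1069 with an intensity trend in eBayes and 184 with the ACTB 3′ to 5′ difference as a covariate. With the parental population as a replicate block 230 passed, with the title number as the block, which crosses the pairs, 175, and with KYSE180 arrays only plus the parental block, an alternative chosen after seeing the data, 152. Without 1 array the count ran from 209 (180D replicate 1) to 502 (180D replicate 2). The cause was not tested. The 149 calls among list members became 75 (KYSE180 arrays only), 81 (parental block), 64 (title-number block), 60 (KYSE180 arrays with parental block), 233 (trend), 80 (weights) and 70 (covariate), and 72 to 131 without 1 array. The 1723 genes that differed between the lines became 1142 (no filter), 1011 (parental block), 961 (title-number block), 2700 (trend) and 835 (covariate), and 1104 to 1702 without 1 KYSE180 array. The count of genes changed at least 2-fold stayed between 33 and 56, and other filters, probe set averaging and centring left every count within 1.5 times its value. The direction reversed for LRATD1 (0.030 with the filter on the KYSE180 arrays only) and for SEL1L (-0.10 with the mean of a gene's probe sets), where other probe sets came in, and neither then passed. Dim genes near the filter value are understated by RMA, and levels below it have no order.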
